A study of Mus musculus with 4 samples.

Results

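Promoters of 10 genes of the epithelial-mesenchymal transition (EMT) were described: Twist1, Twist2, Snai1, Snai2, Zeb1, Zeb2, Cdh1, Cdh2, Cdh11 and Vim. The genes were chosen by name, as the Twist, Snail and Zeb transcription factors with cadherins and vimentin. They are 10 of 22367 protein-coding genes with a promoter window, which runs from 1 kb before to 1 kb behind the transcription start site (TSS) of the gene model. The study used chromatin immunoprecipitation and sequencing (ChIP-seq) to map Jarid1b and histone H3 trimethylated at lysine 4 (H3K4me3) in mouse embryonic stem cells. The title of the series concerns Jarid1b targets among developmental genes. Jarid1b, the product of Kdm5b, is an enzyme that removes methyl groups from that lysine, and H3K4me3 is a mark of active and poised promoters.

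All 4 libraries came from E14TG2a.4, a line of mouse embryonic stem cells grown without feeder cells, on gelatin and with LIF, a cytokine that keeps them undifferentiated. The 2 Jarid1b libraries came from cells labelled E14 ESCs and used an antibody named Jarid1b-DAIN. The 2 H3K4me3 libraries came from cells transduced with lentivirus and selected with puromycin. In 1 of them the cells carried the LKO scramble short hairpin RNA (shRNA) and in the other an LKO Jarid1b shRNA. The labels give no time after selection and no measure of Jarid1b after the shRNA, and no library analysed here measures its transcript or protein. In these bulk cells, a mark on more cells and more mark per cell cannot be told apart.

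EMT is the conversion of attached epithelial cells into motile mesenchymal cells, as in gastrulation and neural crest migration. Snail and Zeb proteins are zinc finger repressors that bind the DNA letters CACCTG, an E-box, and silence the E-cadherin gene Cdh1, while Twist proteins are basic helix-loop-helix factors of mesoderm that favour the same switch. Cells then replace E-cadherin with cadherins such as N-cadherin, the product of Cdh2, and build filaments of vimentin. Embryonic stem cells themselves hold together through E-cadherin.

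Reads kept numbered 4336767 and 1602370 in Jarid1b replicates 1 and 2, 5158330 in the scramble H3K4me3 library and 2635705 in the Jarid1b shRNA library, after 1 read was kept per position and strand. The Jarid1b libraries shared single fragments: 18.2% of the reads of replicate 2 began at the same base and strand as a read of replicate 1, 11.7 times the median at other offsets. The largest such excess in any other pair of libraries was 1.5 times. The pair was therefore taken as 1 sample (n = 1), and calls shared by both files do not check one culture against another. Within the 10 windows, 7 of 59 reads of replicate 2 (11.9%) lay at such a shared base. Of 8 stem cell marker promoters, 7 passed the H3K4me3 enrichment test in the scramble library (60.0% of all promoters) and 6 in the Jarid1b shRNA library (59.9%). Their summed H3K4me3 was 291.6 and 194.3 reads per 1000000 reads kept (RPM). By the rule given below, 4 of the 7 compared were called lower (Nanog, Zfp42, Tdgf1 and Dppa5a), against 2.37% of all promoters compared. The windows of these 4 have 44.6% to 50.4% GC, and H3K4me3 differences moved with GC content across promoters, as given below. Esrrb had no read in the Jarid1b shRNA library and 3 in the scramble, was enriched in neither and was not compared. Of 8 fibroblast marker promoters, 1 and 2 were enriched (60.0% and 59.9% of all promoters), with summed levels of 7.56 and 17.1 RPM. There was no read at Lum in the scramble library, and none at Col3a1 and Dcn in the other. Trophoblast (5 markers), primitive endoderm (6) and neural (5) sums were 23.3, 13.8 and 28.7 RPM in the scramble library and 52.4, 31.9 and 61.8 RPM in the Jarid1b shRNA library, where Elf5 and Dcx had no read. In that order, 3, 2 and 3 of these promoters were enriched in the scramble library and 4, 3 and 3 in the other. Each list had 3 promoters compared, of which 3, 3 and 1 were called higher (24.0% of all compared) and none lower (2.37%). The part of all these markers in the results below was not tested.

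The E-box was searched in the 250 bases before and the first 30 bases from each TSS, as CACCTG or its reverse complement CAGGTG. Among all promoters, 18.8% held it (4195 of 22367) in the same 280 bases, and 67.6% held the wider form CANNTG. It was found at 3 of the 10 genes. Cdh1 held 3 copies, whose first bases lay at −69, −63 and −13 from the TSS. The copies at −69 and −63 abut, as CACCTG followed by CAGGTG. Zeb1 held 2, at −221 and −63, and Snai1 held 1, at −126. No copy was found in this window at the other 7 genes. A match is a run of letters and not a measured binding site, and a window without one says nothing of the factor.

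Sequences are shown for Cdh1, the repressed target of these factors, for Snai1, which encodes one of the factors, and for Twist1. Of the members, Twist1 had the largest fold difference in H3K4me3 between the libraries when scaled to depth alone. The sequences are from the NCBIM37 (mm9) genome, 5′ to 3′ on the plus strand, which is the strand of all 3 genes, with E-box letters in capitals. Cdh1 is chr8:109127001-109127280, Snai1 is chr2:167363445-167363724 and Twist1 is chr12:34642286-34642565.
Cdh1: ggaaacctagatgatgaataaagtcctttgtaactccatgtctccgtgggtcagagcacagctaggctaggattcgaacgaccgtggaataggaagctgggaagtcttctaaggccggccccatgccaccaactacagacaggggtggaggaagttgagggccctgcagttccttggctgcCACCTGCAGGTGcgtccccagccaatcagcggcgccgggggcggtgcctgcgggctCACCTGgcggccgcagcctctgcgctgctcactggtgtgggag
Snai1: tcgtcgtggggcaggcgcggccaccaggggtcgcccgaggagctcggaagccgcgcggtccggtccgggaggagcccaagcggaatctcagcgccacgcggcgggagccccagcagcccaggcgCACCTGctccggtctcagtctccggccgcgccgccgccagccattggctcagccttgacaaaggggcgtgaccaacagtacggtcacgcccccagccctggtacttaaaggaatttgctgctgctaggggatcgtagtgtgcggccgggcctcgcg
Twist1: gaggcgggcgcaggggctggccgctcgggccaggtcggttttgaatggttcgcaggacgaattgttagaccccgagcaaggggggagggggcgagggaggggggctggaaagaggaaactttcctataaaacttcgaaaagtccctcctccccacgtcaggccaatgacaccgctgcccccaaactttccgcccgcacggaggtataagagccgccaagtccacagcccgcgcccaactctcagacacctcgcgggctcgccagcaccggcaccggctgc
The abutting pair in Cdh1 is seen as 1 run of capitals, and no capital stands in the Twist1 sequence.

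Enrichment is the number of reads in a window over the number expected from the library's own background. That background is the genome rate or the rate in the flanks out to 10 kb, whichever is higher. Calls came from a one-sided exact Poisson test, with Benjamini-Hochberg adjusted p-values over all 22367 promoters and a threshold of 0.05. Jarid1b was called enriched at 4 of the 10 promoters in both libraries: Twist1, Twist2, Zeb1 and Cdh11. Among all promoters 7.94% were called. Replicate 1 alone called 9 of the 10 (26.7% of all promoters), all but Zeb2, and replicate 2, the shallower library with 59 reads in these windows, called the same 4 as the pair (10.8%). H3K4me3 was enriched at 10 of 10 in the scramble library (60.0% of all) and at 10 of 10 in the Jarid1b shRNA library (59.9%).

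The H3K4me3 difference is the log2 ratio of RPM, Jarid1b shRNA over scramble, with an exact 95% interval conditional on the summed reads. Promoters called for H3K4me3 in 1 or both libraries and holding 20 or more reads in sum were compared, and a difference of at least 2-fold whose interval excluded 0 was called. Read numbers are given unscaled, and the Jarid1b shRNA library is the shallower of the 2. Each condition has 1 library, so the conditions could not be tested against a spread between replicates. The intervals hold counting error alone, and reads without molecular identifiers may be copies of 1 molecule. Twist1, Twist2, Zeb1, Cdh2 and Cdh11 were called higher, 5 of 10 against 24.0% of the 13273 promoters compared. None was called lower, against 2.37%. The median ratio of the 10 was 1.07, and that of all promoters compared was 0.41. The ratio was above 0 at 8 of the 10 and at 69.5% of all.

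**Figure D1:**
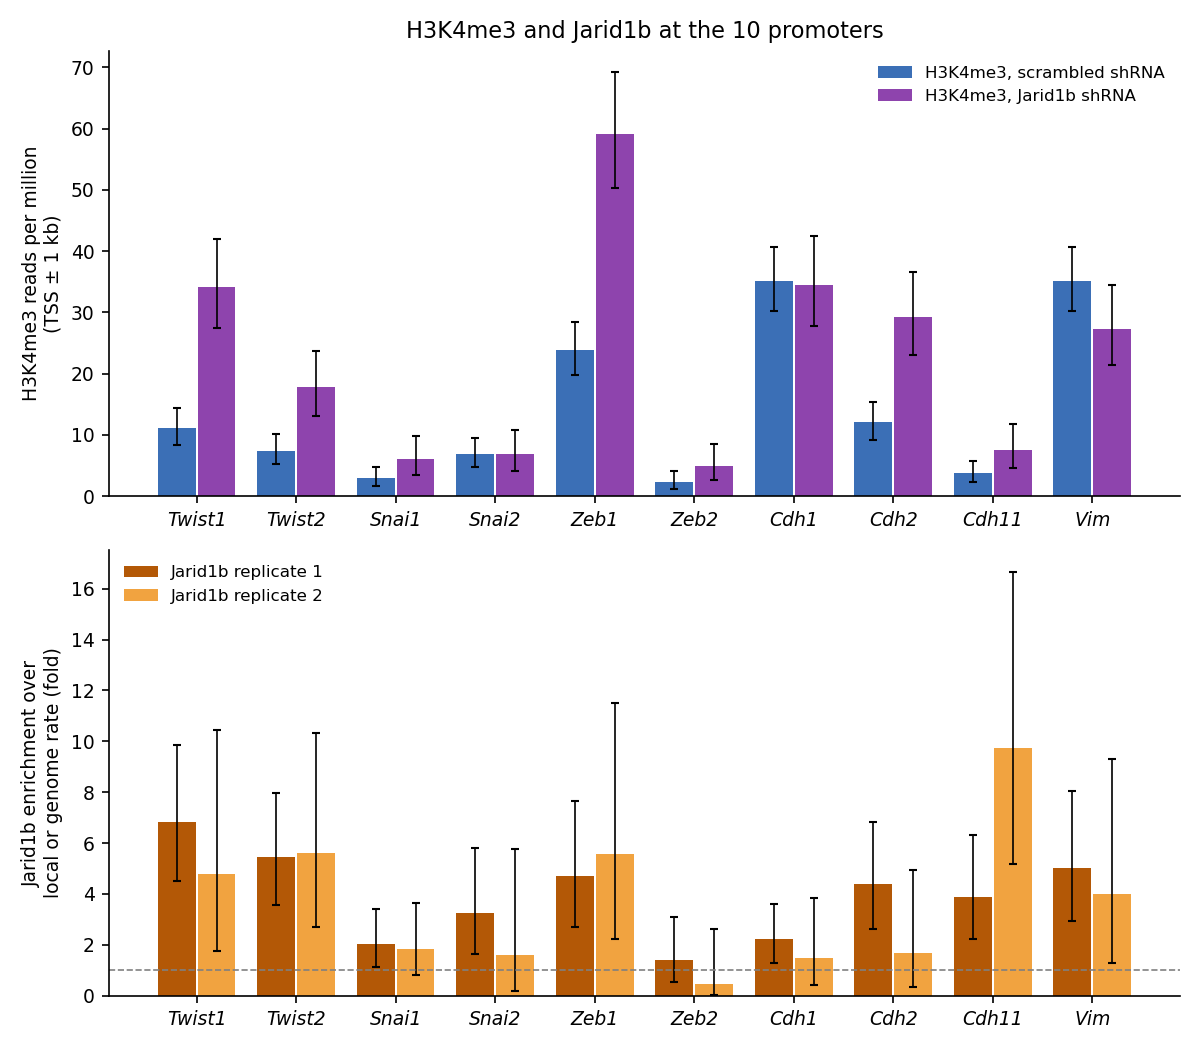
H3K4me3 level (upper panel, RPM) and Jarid1b enrichment (lower panel, fold over the background, dashed line at 1) in the windows around the 10 start sites, 1 bar per library with 95% Poisson intervals that cover counting error only. Zeb1 reached 59.2 RPM in the Jarid1b shRNA library and 23.8 RPM in the scramble, while the bars of Cdh1 stood at 34.5 and 35.1 RPM, and Cdh11 had the tallest Jarid1b bar in replicate 2 with 9.75-fold.

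Twist1 (ENSMUSG00000035799.5, chr12:34642536-34644682, plus strand), a factor of cranial mesoderm and neural crest, held 57 H3K4me3 reads in the scramble library and 90 in the Jarid1b shRNA library. Scaled to depth these were 11.1 RPM (95% Poisson interval 8.37 to 14.3) and 34.1 RPM (27.5 to 42.0), which do not overlap. The log2 ratio was 1.63 (1.13 to 2.13), or 3.09-fold, larger than at 92.0% of the promoters compared. Jarid1b replicate 1 held 28 reads, 6.81-fold over background (4.53 to 9.84, exact Poisson test, adjusted p = 2.98e-12), and replicate 2 held 6, 4.79-fold (1.76 to 10.4, adjusted p = 0.0216). The H3K4me3 reads lay mainly behind the start site. In the first kb downstream they went from 40 to 71, a ratio of 1.80 (1.22 to 2.39), and in the last kb upstream from 17 to 19, a ratio of 1.13 (0.11 to 2.16). These intervals overlap. Both H3K4me3 libraries had their densest 200 bases around 400 bases downstream.

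Twist2 (ENSMUSG00000007805.3, chr1:93698038-93744605, plus strand) encodes a close relative of Twist1 found in dermis. It held 38 scramble and 47 Jarid1b shRNA reads of H3K4me3, or 7.37 RPM (5.21 to 10.1) and 17.8 RPM (13.1 to 23.7). The Jarid1b shRNA level lay above the scramble interval, with a log2 ratio of 1.28 (0.63 to 1.93), or 2.42-fold. Jarid1b was enriched 5.44-fold in replicate 1 (26 reads, 3.55 to 7.97, exact Poisson test, adjusted p = 1.47e-09) and 5.63-fold in replicate 2 (10 reads, 2.70 to 10.3, adjusted p = 0.000864), of which 2 reads lay at a base shared between the libraries. The 2 sides of this start site had ratios of 1.61 (upstream, 18 and 28 reads, 0.70 to 2.55) and 0.89 (downstream, 20 and 19 reads, −0.09 to 1.88), and their intervals overlap. At the densest place, 400 bases upstream, 16 Jarid1b shRNA reads fell within 200 bases, and the densest place of the scramble library, 600 bases upstream, held 7.

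Snai1 (ENSMUSG00000042821.7, chr2:167363695-167368314, plus strand), the Snail repressor needed at gastrulation, carried little of the mark. It held 15 scramble and 16 Jarid1b shRNA reads, or 2.91 RPM (1.63 to 4.80) and 6.07 RPM (3.47 to 9.86). The intervals of these levels overlap. The log2 ratio of 1.06 has an interval from −0.05 to 2.18 and was not called. Jarid1b reads numbered 14 and 8. Because the flanks were themselves read-rich, at 2.03 and 3.46 times the genome rate, the enrichment was 2.03-fold in replicate 1 (1.11 to 3.41, exact Poisson test, adjusted p = 0.0435) and 1.85-fold in replicate 2 (0.80 to 3.64, adjusted p = 0.272).

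Snai2 (ENSMUSG00000022676.6, chr16:14705945-14709488, plus strand), the Slug repressor of neural crest, had 35 scramble and 18 Jarid1b shRNA reads. Its levels were 6.79 RPM (4.73 to 9.44) and 6.83 RPM (4.05 to 10.8), and the log2 ratio was 0.01, with an interval of −0.90 to 0.87. That interval spans 0.537-fold to 1.83-fold, and a smaller difference was not detectable at this depth. Jarid1b enrichment was 3.24-fold in replicate 1 (11 reads, exact Poisson test, adjusted p = 0.00528) and 1.60-fold in replicate 2 (2 reads, adjusted p = 0.663).

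Zeb1 (ENSMUSG00000024238.5, chr18:5591858-5775465, plus strand), a zinc finger and homeodomain repressor, had the highest Jarid1b shRNA level of the 10. It held 123 scramble and 156 Jarid1b shRNA reads, or 23.8 RPM (19.8 to 28.5) and 59.2 RPM (50.3 to 69.2), which do not overlap. The log2 ratio was 1.31 (0.96 to 1.66), or 2.48-fold. Among all promoters its read count ranked at the 79.2 percentile in the scramble library and at 97.9 in the Jarid1b shRNA library. Jarid1b was enriched 4.72-fold in replicate 1 (16 reads, 2.70 to 7.66, exact Poisson test, adjusted p = 1.50e-05) and 5.59-fold in replicate 2 (7 reads, 2.25 to 11.5, adjusted p = 0.00654).

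The 2 sides of the Zeb1 start site differed. In the last kb upstream H3K4me3 reads went from 77 to 55, a ratio of 0.48 (−0.04 to 1.0), and in the first kb downstream from 46 to 101, a ratio of 2.10 (1.59 to 2.64). These intervals do not overlap. The densest 200 bases lay 300 bases upstream in the scramble library (40 reads) and 800 bases downstream in the Jarid1b shRNA library (35 reads). From 1 to 5 kb downstream, 26 and 37 reads gave a ratio of 1.48 (0.72 to 2.26). Jarid1b reads lay downstream in 10 of 16 cases in replicate 1 and 7 of 7 in replicate 2. The downstream kb has a GC content of 74.6% and the upstream kb 58.1%. A protein-coding gene model on the opposite strand, Gm10125, starts 579 bases downstream, inside the window, so reads there cannot be assigned to 1 of the 2 genes.

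Zeb2 (ENSMUSG00000026872.8, chr2:44839154-44972915, minus strand), a related repressor that acts in neural and neural crest development, had the fewest reads of the 10 in every library. H3K4me3 reads numbered 12 and 13, or 2.33 RPM (1.20 to 4.06) and 4.93 RPM (2.63 to 8.43), and the log2 ratio of 1.08 (−0.17 to 2.35) was not called. Jarid1b had 6 reads in replicate 1 (1.42-fold, exact Poisson test, adjusted p = 0.452) and 1 in replicate 2 (0.474-fold, adjusted p = 1). The level at this start site was low in both conditions.

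The reads of Zeb2 lay farther along the gene. From 5 to 10 kb downstream of the gene-level TSS there were 30 scramble and 47 Jarid1b shRNA reads, a ratio of 1.62 (0.93 to 2.33). That stretch holds the start of another annotated protein-coding transcript, Zeb2-002, at chr2:44965897, 7018 bases downstream. All annotated start sites were therefore also tested, a choice made after seeing the data (70051 sites, of which 6.46% were called for Jarid1b in both libraries and 21.2% of those compared were called higher in H3K4me3). At Zeb2-002 Jarid1b was enriched 4.63-fold in replicate 1 (18 reads, exact Poisson test, adjusted p = 6.29e-06) and 6.0-fold in replicate 2 (8 reads, adjusted p = 0.00273). H3K4me3 reads there numbered 24 and 39, for a log2 ratio of 1.67 (0.90 to 2.47), called higher. At the non-coding start sites Zeb2-007 and Zeb2-010, whose windows overlap this one, replicate 2 held 6 reads and missed the threshold (exact Poisson test, adjusted p = 0.0555). The Zeb2-002 window has 61% GC. The 981 promoters within 1 point of that had a median H3K4me3 ratio of 1.01, inside the interval at Zeb2-002. For Jarid1b, 24.3% of promoters within 1 point of Cdh11 (60.6% GC) were called in both libraries. The lincRNA Gm13476 starts on the opposite strand 6257 bases downstream of the gene-level TSS, within the Zeb2-002 window too.

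**Figure D2:**
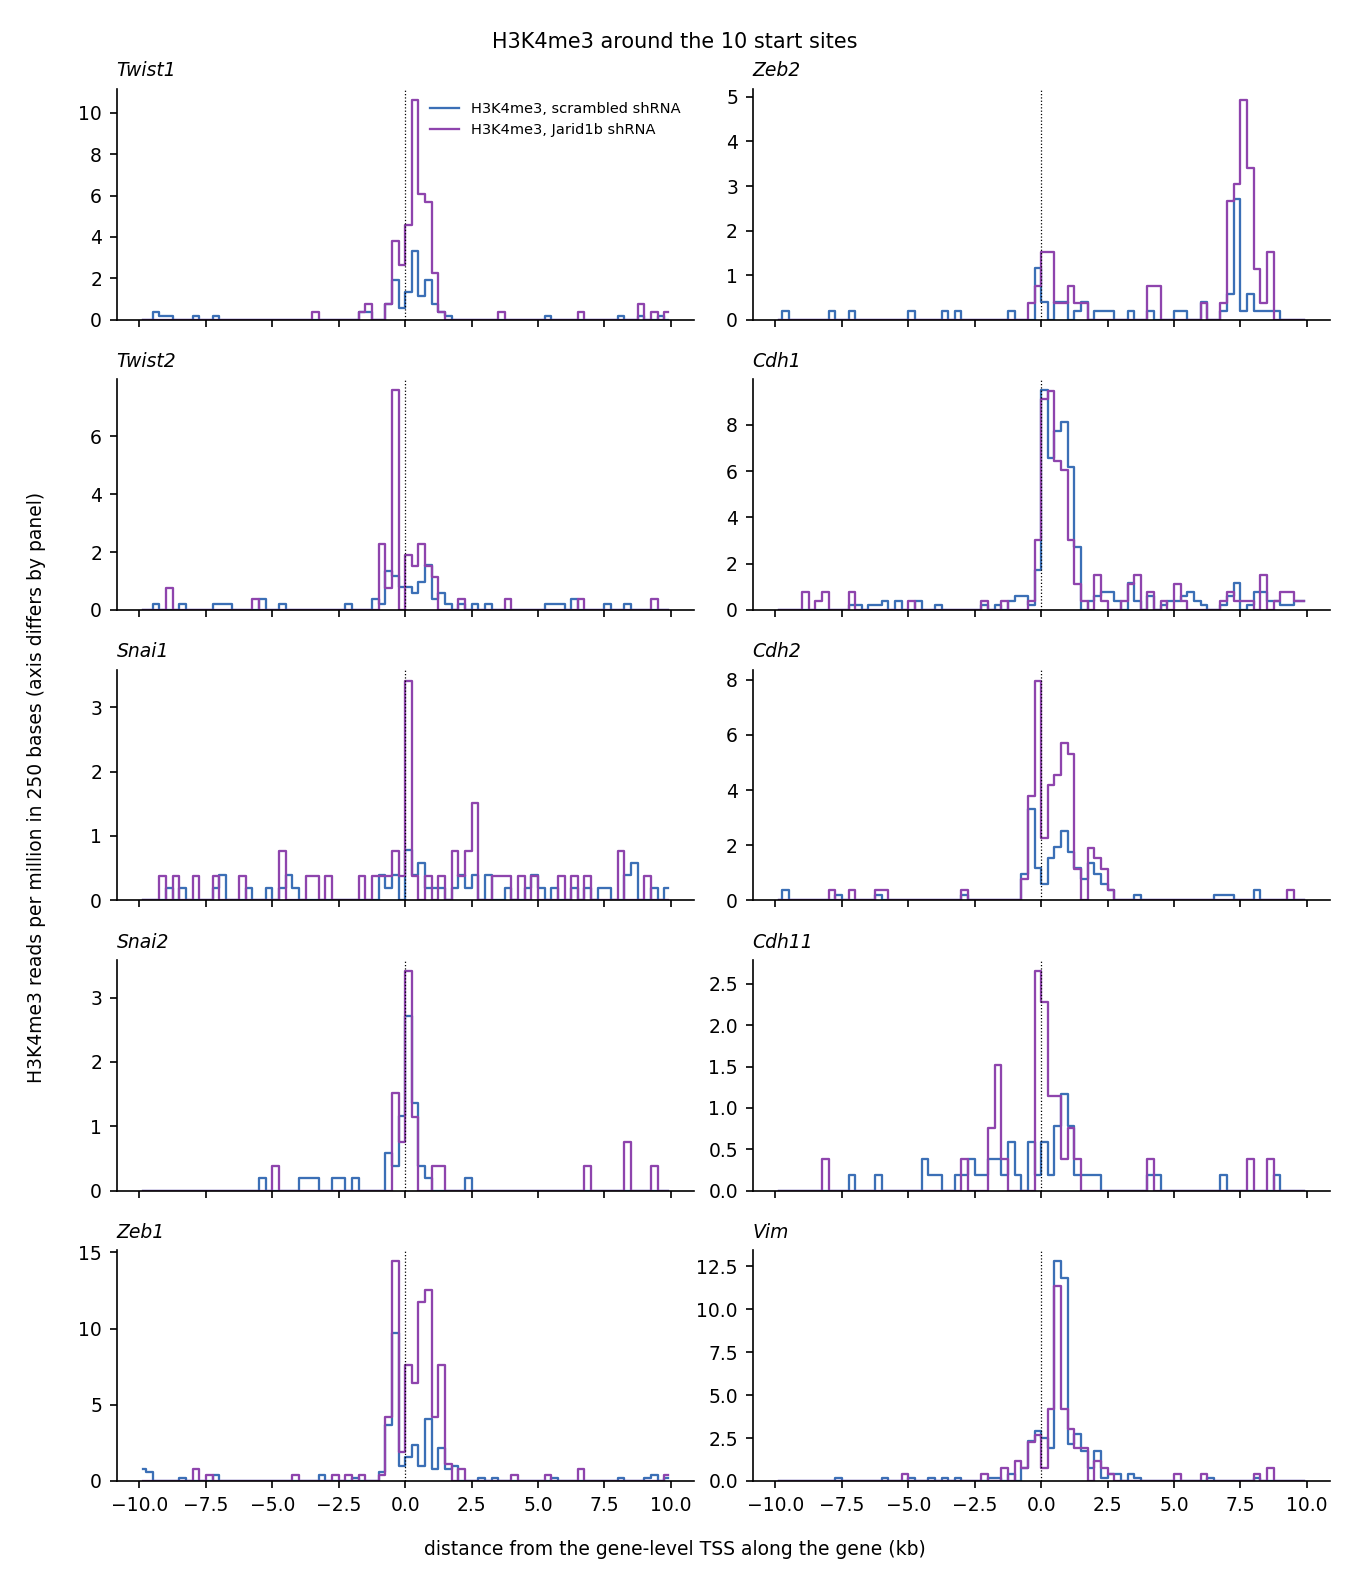
H3K4me3 (RPM in bins of 250 bases) against distance from the gene-level TSS along each gene, from 10 kb upstream to 10 kb downstream, in the scramble and the Jarid1b shRNA library (1 library each, axes differ by panel). At Zeb1 the Jarid1b shRNA line lies above the scramble line mainly downstream, at Zeb2 both lines peak beyond 5 kb rather than at the start site, and at Cdh1 and Vim the lines lie close together.

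Cdh1 (ENSMUSG00000000303.6, chr8:109127251-109194146, plus strand), which encodes E-cadherin, shared with Vim the highest scramble level of the 10. It held 181 scramble and 91 Jarid1b shRNA reads, or 35.1 RPM (30.2 to 40.6) and 34.5 RPM (27.8 to 42.4). The log2 ratio was −0.02 (−0.40 to 0.35), so that a change of 2-fold lies outside the counting interval in both directions. The mark lay downstream of the start, with 91.2% and 90.1% of the window's reads on that side. The first kb downstream held 165 and 82 reads, a ratio of −0.04 (−0.44 to 0.35), and the next stretch, from 1 to 5 kb, held 75 and 28, a ratio of −0.45 (−1.13 to 0.19). Jarid1b enrichment was 2.22-fold in replicate 1 (16 reads, 1.27 to 3.60, exact Poisson test, adjusted p = 0.0161) and 1.5-fold in replicate 2 (4 reads, 0.41 to 3.84, adjusted p = 0.627). Flanks of Cdh1 held about 2.13 times the genome rate in both Jarid1b libraries.

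Cdh2 (ENSMUSG00000024304.8, chr18:16747386-16967755, minus strand), the N-cadherin gene, held 62 scramble and 77 Jarid1b shRNA reads, or 12.02 RPM (9.22 to 15.4) and 29.2 RPM (23.1 to 36.5). These levels do not overlap, and the log2 ratio was 1.28 (0.78 to 1.79), or 2.43-fold. The ratio was alike on the 2 sides of the start, 1.21 upstream (28 and 33 reads, 0.43 to 1.99) and 1.34 downstream (34 and 44 reads, 0.66 to 2.03). From 1 to 5 kb downstream it was 0.67 (37 and 30 reads, −0.08 to 1.40). Jarid1b was enriched 4.38-fold in replicate 1 (19 reads, 2.64 to 6.85, exact Poisson test, adjusted p = 5.30e-06). Replicate 2 held 3 reads, 1.69-fold (0.35 to 4.93, exact Poisson test, adjusted p = 0.599), and Cdh2 was not called in both.

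Cdh11 (ENSMUSG00000031673.5, chr8:105156895-105309011, minus strand) encodes a cadherin of mesenchyme and bone-forming cells. Its H3K4me3 was low, with 19 scramble and 20 Jarid1b shRNA reads, or 3.68 RPM (2.22 to 5.75) and 7.59 RPM (4.64 to 11.7). The intervals of these levels overlap, but the interval of their log2 ratio, 1.04 (0.06 to 2.03), excludes 0, and the promoter was called higher at 2.06-fold. It is the call nearest to the threshold: Snai1 and Zeb2, with ratios of 1.06 and 1.08, missed it because their intervals hold 0. Jarid1b was enriched 3.89-fold in replicate 1 (16 reads, 2.22 to 6.32, exact Poisson test, adjusted p = 0.000114) and 9.75-fold in replicate 2 (13 reads, 5.19 to 16.7, adjusted p = 8.98e-07). That is the highest value of the 10 in replicate 2, and its read count ranked at the 99.1 percentile of promoters there and at 88.8 in replicate 1.

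Vim (ENSMUSG00000026728.3, chr2:13495554-13504453, plus strand), the gene of the filament protein vimentin, carried H3K4me3 at the level of Cdh1 in the scramble library. It held 181 scramble and 72 Jarid1b shRNA reads, or 35.1 RPM (30.2 to 40.6) and 27.3 RPM (21.4 to 34.4). The log2 ratio was −0.36 (−0.78 to 0.04), or 0.779-fold, and was not called. It was lower than at all but 15.5% of the promoters compared. In the first kb downstream 150 and 54 reads gave −0.51 (−0.98 to −0.05), and the densest 200 bases lay 600 bases downstream in both libraries. Jarid1b was enriched 5.01-fold in replicate 1 (17 reads, 2.92 to 8.03, exact Poisson test, adjusted p = 3.87e-06) and 3.99-fold in replicate 2 (5 reads, 1.30 to 9.32, adjusted p = 0.0656), just short of the threshold.

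The order of the members depended on the condition. In the scramble library the levels ran from Vim and Cdh1 through Zeb1, Cdh2, Twist1, Twist2, Snai2, Cdh11 and Snai1 to Zeb2. Zeb1 lay below the intervals of Cdh1 and Vim, and Cdh2 lay below that of Zeb1. Cdh2 and Twist1 overlapped, as did each further pair of neighbours in that order. In the Jarid1b shRNA library Zeb1 stood above every other member, and Cdh1, Twist1, Cdh2 and Vim followed at 34.5, 34.1, 29.2 and 27.3 RPM with overlapping intervals.

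All 4 members called for Jarid1b were also called higher in H3K4me3. Among all Jarid1b-enriched promoters compared, 864 of 1752 were called higher (49.3%), and among the others 2321 of 11521 (20.1%). These shares were not matched for GC content, with which both measures move, as given below. Cdh2, the fifth member called higher, was called for Jarid1b in replicate 1 alone.

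The members are GC-rich, and both measures move with GC content. Their median was 61.9% GC (48.5% at Zeb2 to 67.4% at Twist1) against 51.2% over all promoters and 59.1% over those called for Jarid1b. Their median ratio of observed to expected CpG was 0.680, against 0.468 over all. Across the 13273 promoters compared, which are not replicates and share their 2 libraries, Spearman's rho between GC content and the H3K4me3 ratio was 0.627. Each member was therefore set beside promoters within 1 point of its GC content, a choice made after seeing the data. The median ratio of such promoters was 1.45 for Twist1 (member 1.63), 1.21 for Twist2 (1.28), 1.37 for Zeb1 (1.31), 1.27 for Cdh2 (1.28), 0.99 for Cdh11 (1.04), 1.17 for Snai1 (1.06) and −0.17 for Snai2 (0.01). For these 7 the member's interval holds that median. Cdh1 (−0.02) and Vim (−0.36) lay below the medians of 0.56 and 0.45, outside their intervals. Zeb2 (1.08) lay above its median of −0.21, just outside its interval. The Zeb2 window is uneven, with 40.3% GC upstream of the start and 56.6% downstream. Of its 12 scramble and 13 Jarid1b shRNA reads, 50% and 76.9% lay downstream. Promoters matched on the mean of this window are thus not matched to either side of it.

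**Figure D3:**
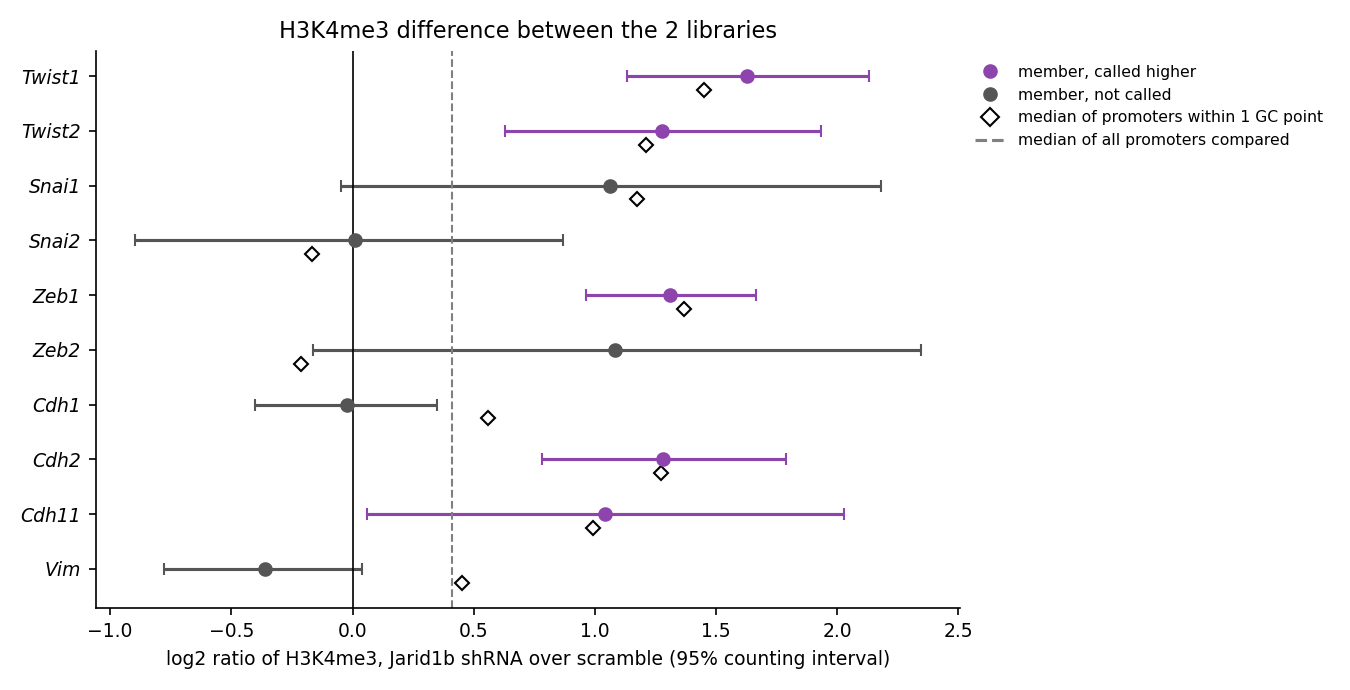
Log2 ratio of H3K4me3 in each window, Jarid1b shRNA over scramble, with 95% counting intervals (1 library per condition), the median of promoters within 1 point of GC content as open diamonds, and the median of all promoters compared, 0.41, as a dashed line. The diamonds lie within the intervals of 7 members, above those of Cdh1 and Vim, and below that of Zeb2.

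The GC content of the window also bears on the Jarid1b calls. Among promoters within 1 point of the same GC content, 45.9% were called in both libraries for Twist1, 42.4% for Zeb1, 32.3% for Twist2 and 24.3% for Cdh11. For Cdh2 and Snai1, which were not called, the shares were 33.3% and 33.0%, for Cdh1 and Vim 12.5% and 10.6%, and for Snai2 and Zeb2 1.69% and 1.14%. Against a background rate taken from bins of the same GC class away from start sites, none of the 10 was called in both (0.671% of all promoters). The highest class runs from 60% to 100% GC. Twist1, Twist2, Snai1, Zeb1, Cdh2 and Cdh11 all fall in it and share 1 rate, which is not matched to the GC content of each. Twist1 was then 2.74-fold and 1.48-fold in replicates 1 and 2 (exact Poisson test, adjusted p = 0.000355 and 0.820). Twist2 was 2.54-fold and 2.47-fold (exact Poisson test, adjusted p = 0.00173 and 0.209), Zeb1 1.56-fold and 1.73-fold (0.303 and 0.649), and Cdh11 1.56-fold and 3.22-fold (0.303 and 0.0330). With the reads of both libraries pooled and the same background, an alternative chosen after seeing the data, Twist1, Twist2 and Cdh11 were called, and 8.94% of all promoters. Fragments shared by the libraries were counted in each when pooled, whereas the test takes reads as independent.

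**Figure D4:**
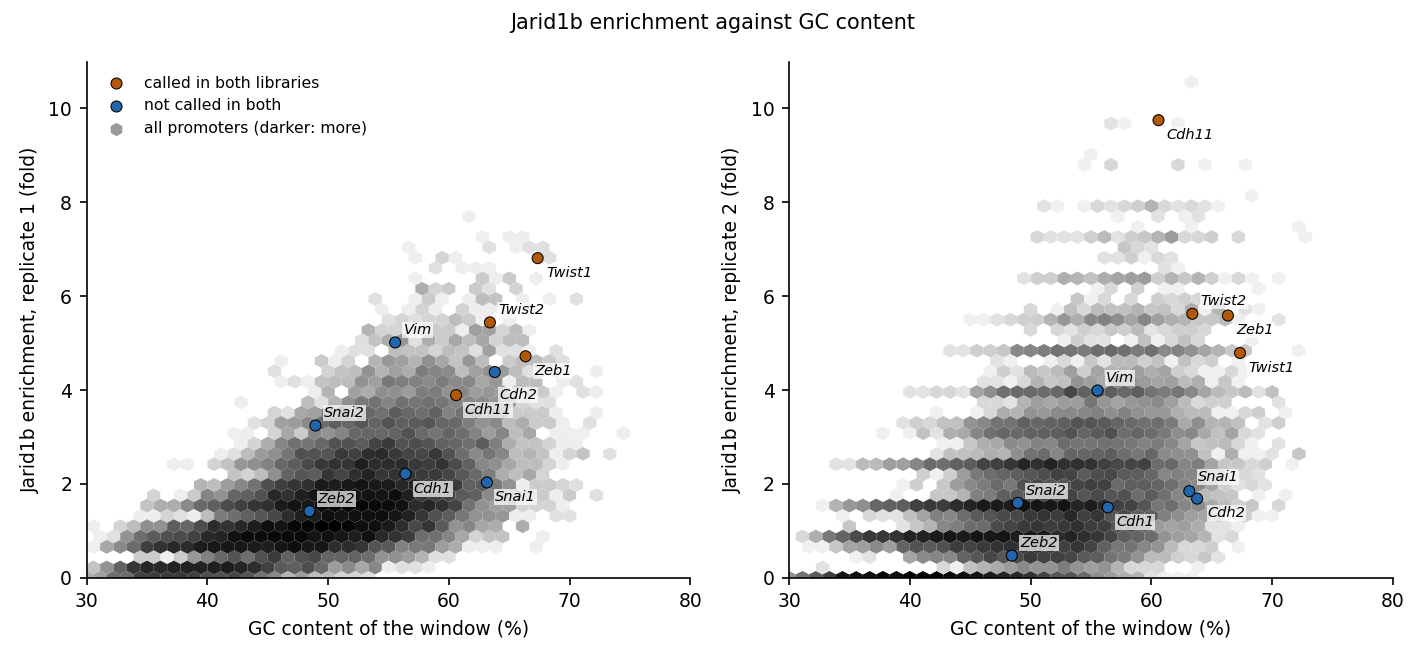
Jarid1b enrichment (fold over background) against GC content of the window (%) for all promoters (grey, darker where more lie) and the 10 members (coloured by whether both libraries called them), replicate 1 on the left and replicate 2 on the right. Enrichment climbs with GC content in the grey cloud, and the 4 called members lie above 60% GC; the axis ends at 11-fold, which leaves out 1 promoter on the left and 10 on the right.

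The H3K4me3 calls moved with the scaling and with GC content as well. Scaling to the median ratio of promoters shifts every ratio down by 0.41 and leaves Twist1 as the single member called higher (12.0% of promoters). Scaling to background bins shifts them up by 0.25 and adds Snai1 and Zeb2 to the 5 (34.1%). With the GC trend across promoters removed, Zeb2 alone was called higher (7.11%), Zeb1 and Snai1 each had a ratio of −0.12, and the median of the 10 was 0.06. With the GC trend of background bins removed, chosen after seeing the data, none was called higher (7.84%) and their median was 0.27. No member was called lower under any of these, against 8.97% of promoters with median scaling, 0.866% with background bin scaling, and 2.98% and 3.75% with the GC trends removed.

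By distance over the 4 libraries on the scale of log2(RPM + 0.5), the promoters nearest to Twist1 were Atxn1 (distance 0.123), Ctdspl (0.128) and Nog (0.252). Those nearest to Cdh1 were 1700001G17Rik (0.0804), Ipo13 (0.113) and Ppp1cc (0.120).

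The other genes of the pathway were taken from 7 lists, chosen like the members with earlier results of these data known. Among 31 mesenchymal and EMT-inducing regulators, 8 were called for Jarid1b in both libraries (7.94% of all promoters). Of the 26 compared, 19 were called higher in H3K4me3 and none lower, with a median ratio of 1.60. Over all promoters compared, 24.0% were called higher and 2.37% lower, with a median of 0.41. Hmga2, a chromatin protein of embryonic growth, was enriched for Jarid1b 10.6-fold and 6.50-fold and had a ratio of 2.00 (48 to 98 reads). The organizer gene Gsc had 3.23-fold and 7.11-fold enrichment and a ratio of 2.75 (14 to 48 reads), and the mesoderm gene T had 5.44-fold and 3.94-fold and a ratio of 1.92 (16 to 31). Msx1 had the highest ratio of that list with 3.33 (7 to 36 reads), followed by Hand2 with 2.89 (10 to 38). Id1 and Id2, inhibitors of basic helix-loop-helix factors, had the lowest with −0.52 and −0.45, not called.

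Among the 15 TGF-beta pathway genes, whose ligands induce EMT in epithelial cells, 3 were called for Jarid1b (7.94% of all promoters). The median GC content of this list is 62.45%. Of promoters within 1 point of Snai1 (63.15% GC), 33.0% were called. Of the 15, 11 were called higher (24.0% of all compared) and none lower (2.37%), with a median of 1.38. The 3 called for Jarid1b were the receptor gene Tgfbr3 (ratio 1.38), the binding protein gene Ltbp1 (1.51) and the SMAD inhibitor gene Skil (1.63). Tgfbr2 had the highest ratio, 1.88 (32 to 60 reads), then the ligand gene Tgfb2 with 1.87 (22 to 41). Eng, with 0.68, and Tgfb3, with 0.82, had the lowest.

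Epithelial junction and keratin genes had 4 of 28 called for Jarid1b (7.94% of all promoters). Of 21 compared, 9 were called higher (24.0% of all compared) and 1 lower (2.37%), with a median of 0.86. The desmosome gene Dsp (ratio 1.32) and the tight junction gene Ocln (1.19) were called on both measures, whereas Cldn3 was called for Jarid1b with a ratio of 0.37. Tjp1 had a ratio of 1.72 (61 to 103 reads) and Cldn7 of 1.62. Ctnnd1, which encodes the p120 catenin that holds cadherins at the membrane, was called lower at −1.51 (95 to 17 reads, −2.35 to −0.76). Its window has 42.05% GC. Of 14 epithelial regulators, 2 were called for Jarid1b (7.94% of all promoters). Of 12 compared, 4 were called higher (24.0% of all compared) and none lower (2.37%), with a median of 0.88. Ovol2, a repressor of Zeb1 in epithelia, was called on both measures, with a ratio of 2.02 (30 to 62 reads). Grhl2 was called for Jarid1b with a ratio of 0.38, Tcfap2a had 1.76, and Grhl3 and the splicing regulator Esrp1 had −0.73 and −0.20, not called.

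Mesenchymal matrix and cytoskeleton genes had 1 of 28 called for Jarid1b (7.94% of all promoters), Nes (ratio 1.30). Of 13 compared, 5 were called higher (24.0% of all compared) and 1 lower (2.37%), with a median of 0.85. Des had 1.85 and the matrix crosslinking enzyme gene Lox 1.59, whereas Spp1 (43% GC) was called lower at −1.32 (93 to 19 reads) and Sparc had −0.37. Of 15 other classical cadherins, none was called for Jarid1b in both libraries (7.94% of all promoters). In replicate 1, 4 were called (26.7% of all) and in replicate 2, 2 were (10.8%). Of these cadherins 2 of 9 compared were called higher (24.0% of all compared), Cdh22 with 2.68 (22 to 72 reads) and Cdh4 with 2.06. Their median was 0.67, and Cdh20 and Cdh6 had −0.43 and −0.12. Of 15 corepressors and partners of the Snail and Zeb factors, 4 were called for Jarid1b (7.94% of all promoters). The median GC content of this list is 61.8%, and 24.3% of promoters within 1 point of Cdh11 (60.6% GC) were called. Of the 15, 4 were called higher, near the 24.0% of all compared, and none lower (2.37%), with a median of 0.82. Hdac2 (ratio 0.97), Suz12 (0.26) and Gsk3b (0.83) led its Jarid1b calls and were not called in H3K4me3, and Fbxw7 (1.90) and Rcor1 (1.44) had the highest ratios, with Hdac1 lowest at −0.24.

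As shares of the promoters compared, those called higher made up 73.1% of the EMT-inducing regulators, 73.3% of the TGF-beta genes, 42.9% of the junction genes, 33.3% of the epithelial regulators and 38.5% of the matrix genes, against 24.0% of all promoters. The shares of the other cadherins (22.2%) and of the corepressors (26.7%) were near that background, so their counts are no result about these 2 lists. Those of the epithelial regulators and matrix genes rest on 4 of 12 and 5 of 13 promoters, and are not read as results either. No share was tested against the background, and the Jarid1b counts of the lists were not matched for GC content.

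With the GC trend across promoters removed, 7.11% of all promoters compared were called higher. The list medians were then 0.63 for the EMT-inducing regulators (9 of 26 higher), 0.18 for the TGF-beta genes (2 of 15) and 0.28 for junction genes (4 of 21). The medians were 0.03 for epithelial regulators (2 of 12) and 0.35 for matrix genes (2 of 13). Those of the other cadherins (−0.22, 1 of 9) and of the corepressors (−0.04, none of 15) turned negative. Called lower were 1 junction gene, 1 epithelial regulator and no matrix gene (2.98% of all compared). With the GC trend of background bins removed, 1 junction gene and 1 matrix gene were called lower (3.75%).

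**Figure D5:**
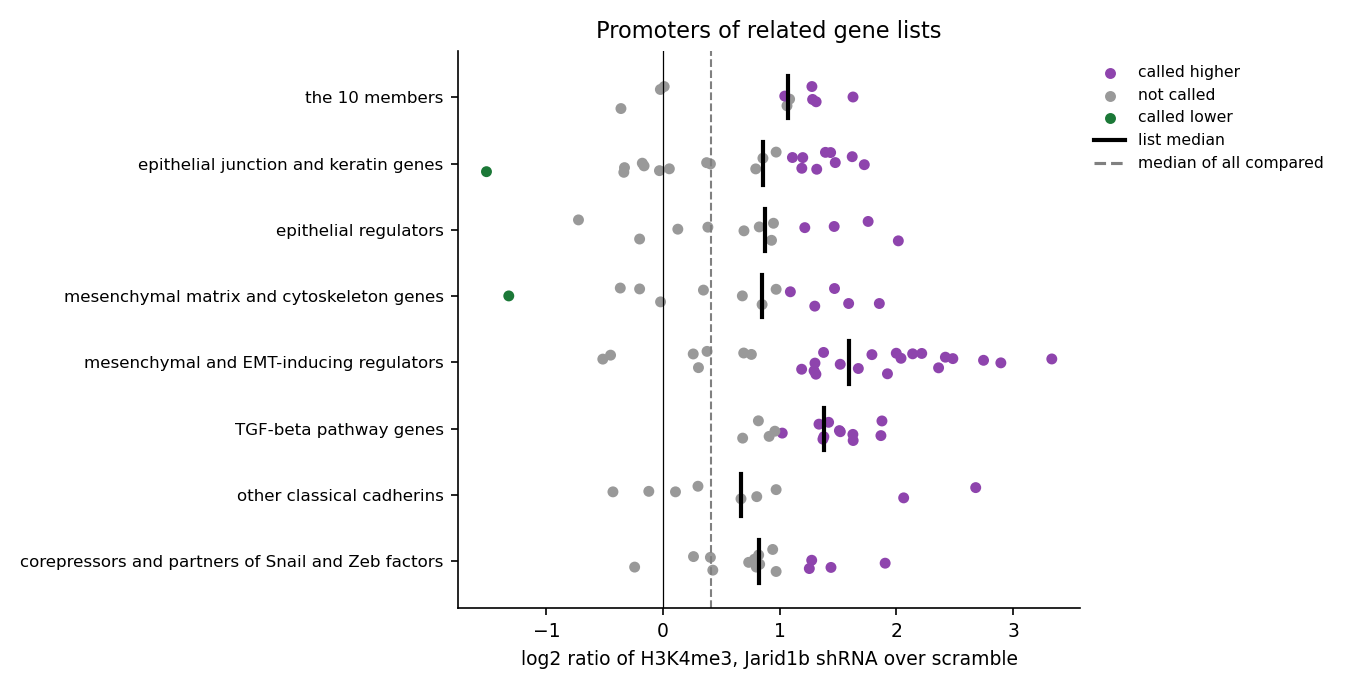
Log2 ratio of H3K4me3, Jarid1b shRNA over scramble, for each compared promoter of the 10 members and of the 7 lists (1 point per promoter, scattered vertically for legibility, coloured by call), with list medians as black bars and the median of all promoters compared as a dashed line at 0.41. All list medians lie to the right of the dashed line, from 0.67 for the other cadherins to 1.60 for the EMT-inducing regulators.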

How the data were processed

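ChIP-seq reads of 4 libraries were used as the authors deposited them, 1 row per aligned read with a score of 0 in every row. Per the labels' protocols, reads were mapped to mm9 with Bowtie (version not given in the sources used here), with 1 match kept per position, MACS peaks and IgG normalization. The deposited rows still repeat positions, so the filter of 1 match per position was not applied to them. Repeats ran from 7.56% of rows in the Jarid1b shRNA library to 31.5% in the scramble H3K4me3 library. No IgG library or peak list was used here.

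From the autosomes (1 to 19) and the sex chromosomes, a single read per strand and 5′ position was kept and shifted by 75 bases. Minus-strand Jarid1b rows, as deposited, overlapped unsequenced bases in 68 (replicate 1) and 26 (replicate 2) reads and in none after moving right by 1 read length, so they were moved, after seeing the data. TSSs were from GENCODE vM1 on NCBIM37. Replicate numbers of the Jarid1b libraries come from the labels. Members, gene lists and the rule for naming genes (per list, up to 3 genes called for Jarid1b by mean enrichment, and the 2 highest and 2 lowest ratios) were chosen with earlier results of these data known. A gene that this rule selects is not reported here. Background bins were 1 kb long, autosomal, over 5 kb from any TSS and not enriched for H3K4me3. They held under 30 reads in Jarid1b replicate 1 and the scramble library. They were put in 14 GC classes, of which the highest runs from 60% to 100%. Nothing says that libraries came from separate cultures, so p-values cover counting error within 1 library. Scripts used Python 3.11.15, numpy 2.4.6 and scipy 1.17.1, and were tested on simulated data.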

Additional observations from a re-analysis of the deposited data

How the results depend on the processing

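The count of 4 members with Jarid1b in both libraries became 2 (Twist2 and Cdh11) at an adjusted p below 0.001 (1.40% of all promoters). It became 0 with the background rate of the same GC class (0.671%) and 9 with pooled reads (34.2%), in which fragments shared by the libraries were counted in each. Leaving out 1 library gave 4 to 9, the 9 without replicate 2 (26.7%) and the 4 without replicate 1 (10.8%). It was 3, without Twist1, with windows of 500 bases (5.69%) and of 2 kb (7.10%), 5 with all rows kept (8.56%), 6 with the genome rate alone (24.8%), and 4 without the shift (7.84%). With minus-strand rows as deposited, an alternative chosen after seeing the data, the 4 were the same genes (7.97%). Mean Jarid1b enrichment of Zeb2 was 0.947-fold, 1.42-fold without replicate 2 and 0.474-fold without replicate 1.

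The count of 5 members higher in H3K4me3 became 1 with scaling to the median ratio (12.0% of promoters compared), 1 with the GC trend across promoters removed (7.11%) and 0 with that of background bins removed (7.84%). It was 6 with windows of 500 bases (29.8%), 7 with all rows kept (32.6%) and 7 with scaling to background bins (34.1%). With 2 kb windows it was 5 (21.5%), with Snai1 and without Cdh11. Under the remaining settings it was 5 (23.5% to 24.2%). The ratio of Zeb1 turned to −0.12 with the GC trend across promoters removed. None was called lower under any alternative, as no member reached a 2-fold decrease. The intervals of Cdh1 and Vim did lie below 0 under 3 of them. With scaling to the median ratio, Cdh1 was at −0.43 (−0.81 to −0.06) and Vim at −0.77 (−1.19 to −0.37). With the GC trend across promoters removed they were at −0.62 and −0.81, and with that of background bins removed at −0.57 and −0.91. The 10 members with H3K4me3 in each library became 9 and 9 with windows of 2 kb (58.9% and 59.5% of all promoters) and 9 and 9 at an adjusted p below 0.001 (57.0% and 57.1%). The cause of these moves was not tested.

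No paired analysis was possible because each H3K4me3 condition has 1 library. Depth limits Snai1, Snai2, Zeb2 and Cdh11 most, with 20 or fewer H3K4me3 reads in the Jarid1b shRNA library.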
